A study of Mus musculus with 15 samples.

Results

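Stromal cells make cytokines that keep blood and immune cells alive, and 6 genes for such factors were followed here by symbol: Il6, Lif, Csf1, Il34, Kitl and Tslp. Of the 6, 5 had a value, while Il34, the other ligand of the CSF-1 receptor, had none and was not analysed here. Kit, Il7r, 8 of 10 gp130 family ligands and all 6 mast cell markers on the lists likewise had no value. Of the gp130 ligands, Il6 and Lif alone are therefore described. The 5 members with a value stand among 10222 gene symbols, or 12698 transcripts, measured in 15 RNA-seq libraries. The members were picked by name, not by a cut on their level, but with earlier results of these data known.

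IL-6 and LIF both signal through gp130, the shared receptor chain encoded by Il6st: IL-6 first binds its own receptor chain IL-6Rα, and LIF joins gp130 with the LIF receptor chain. gp130 turns on JAK kinases and STAT3, and Socs3 is a classical target that feeds back on the pathway. CSF-1 (M-CSF) keeps macrophages alive through the kinase receptor CSF1R, stem cell factor (SCF, the product of Kitl) acts on KIT of mast cells and progenitors, and TSLP acts on a pair of chains, CRLF2 and the IL-7 receptor chain, on dendritic cells and innate lymphoid cells. In fat, IL-6 is known as a product of stromal and adipose cells, CSF-1 as the growth factor of resident macrophages, and SCF as a mast cell and ILC factor.

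All cells were sorted ex vivo from heterozygous Il33-citrine reporter mice on a C57BL/6 background, which carry the fluorescent protein citrine at Il33, and the labels name no treatment. The 5 populations, with 3 libraries each from separate experiments, were multipotent stromal cells of mesenteric white adipose tissue with citrine (Il33+ WAT-MSC) or without it (Il33- WAT-MSC), citrine+ stromal cells of lung (lung Il33+ MSC), CD31+ endothelial cells of WAT and EpCAM+ epithelial cells of lung. The stated WAT-MSC gate was lineage- CD45- EpCAM- CD31- CD24- and PDGFRα+ CD34+ Sca1+ podoplanin+, while the gate of the lung stromal cells, the age of the mice and the number pooled per library were not given in the sources used here. Tissue was digested with enzymes before the sort, and the values are ex vivo levels after that step.

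The authors deposited levels in RPKM, that is reads scaled by transcript length and by library size, and the transcripts of a symbol were summed. The libraries held 42711843 to 60773158 alignments, but the reads behind a single value are unknown, so errors are SDs over the 3 libraries of a population unless named otherwise. Levels in RPKM are per length and can be set side by side between genes. Differences were tested with limma on log2(RPKM + 1), which understates the change of low genes, and a gene passed the test at a Benjamini-Hochberg adjusted p under 0.05. Libraries of all populations ran in 2 sequencing lanes, WAT replicates 1 and 2 and lung replicate 1 in lane 1 and the others in lane 2.

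The labels held against their markers. Il33, the gene of the reporter, averaged 53.0 ± 22.1 RPKM over the 3 libraries of Il33+ WAT-MSC and 5.19 ± 1.37 over those of Il33- WAT-MSC, and Pdgfra was at 71.0 ± 18.3 and 104 ± 22.1. Pecam1 and Cdh5, which mark endothelium, were at 163 ± 30.6 and 171 ± 24.2 in the endothelial cells, and Epcam was at 31.4 ± 7.38 in the epithelial cells against at most 0.28 in any other library. The sorts were not free of other RNA: the summed level of 15 stromal markers was 2588 to 5352 RPKM in the endothelial libraries, against 7852 to 10070 in Il33+ WAT-MSC, and Pdgfra was at 29.4 ± 5.76 there. Endothelial replicate 1 had the largest share of transcripts at 0, 10.9%.

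The sequences just upstream of the start sites of Il6, Lif and Csf1 are shown because these 3 genes were highest in stromal cells, and so that a reader can see which inducible elements lie there. They are from RefSeq on GRCm38.p6, run 5′ to 3′ on the strand of the gene, and stop where the GENCODE M21 transcript begins. Capitals mark matches to TGANTCA (the AP-1 element), the NF-κB motif (given by name, since its letters include ambiguous ones), TTNNGCAA (a C/EBP element), TTCNNNGAA (a STAT element) and TATAAA (the core promoter box named for these letters), each searched on both strands.
Il6, chr5:30012864-30013113, plus strand: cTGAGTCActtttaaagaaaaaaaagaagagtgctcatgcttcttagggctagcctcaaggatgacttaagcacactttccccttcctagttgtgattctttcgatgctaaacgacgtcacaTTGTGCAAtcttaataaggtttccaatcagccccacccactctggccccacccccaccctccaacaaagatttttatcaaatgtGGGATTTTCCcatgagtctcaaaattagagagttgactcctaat
Lif, chr11:4257318-4257556, plus strand: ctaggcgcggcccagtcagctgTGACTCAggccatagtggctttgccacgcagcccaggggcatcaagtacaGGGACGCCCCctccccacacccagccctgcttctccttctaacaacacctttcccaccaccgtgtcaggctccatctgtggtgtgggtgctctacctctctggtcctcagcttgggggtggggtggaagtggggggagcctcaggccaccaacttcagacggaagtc
Csf1, chr3:107760470-107760719, minus strand: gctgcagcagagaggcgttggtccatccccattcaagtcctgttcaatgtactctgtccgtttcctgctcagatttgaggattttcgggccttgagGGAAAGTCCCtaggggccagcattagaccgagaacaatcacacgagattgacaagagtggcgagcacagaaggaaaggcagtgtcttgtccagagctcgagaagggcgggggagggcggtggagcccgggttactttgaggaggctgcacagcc

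The Il6 window held 3 of the 5 elements: TGAGTCA began 249 bases before the RefSeq start, TTGTGCAA 128 bases before it and GGGATTTTCC 44 bases before it. Lif held TGACTCA, 228 bases before its start, and GGGACGCCCC, 178 bases before it, which matched on both strands. Csf1 held GGAAAGTCCC, a match on the other strand, 154 bases before its start. The upstream window of Kitl, also searched over 250 bases, held the NF-κB match GGAAGATCCC and a TATAAA that began 25 bases before the RefSeq start, but 191 of its bases lie inside the GENCODE transcript and it is not printed. No match to the STAT letters was found in these 4 windows. Over 32851 RefSeq promoters of the same length, 7.25% held the NF-κB motif, 6.75% the AP-1, 9.56% the C/EBP, 7.02% the STAT and 12.4% the TATA letters. A match describes these letters only.

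Il6 was the highest of the 5 cytokine genes in both Il33+ stromal populations, at 129 ± 32.6 RPKM in Il33+ WAT-MSC and 249 ± 135 in lung Il33+ MSC. That placed it 186th and 91st among all 10222 symbols by mean level. In Il33- WAT-MSC, in contrast, Csf1 had the higher mean, at 89.1 ± 37.1 against 57.6 ± 33.8 RPKM of Il6. Lif, Kitl and the Tslp transcript stood far below, with means of 1.07 to 3.14 RPKM in Il33+ WAT-MSC. The plot of cytokine levels by population shows these values library by library.

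**Figure D1:**
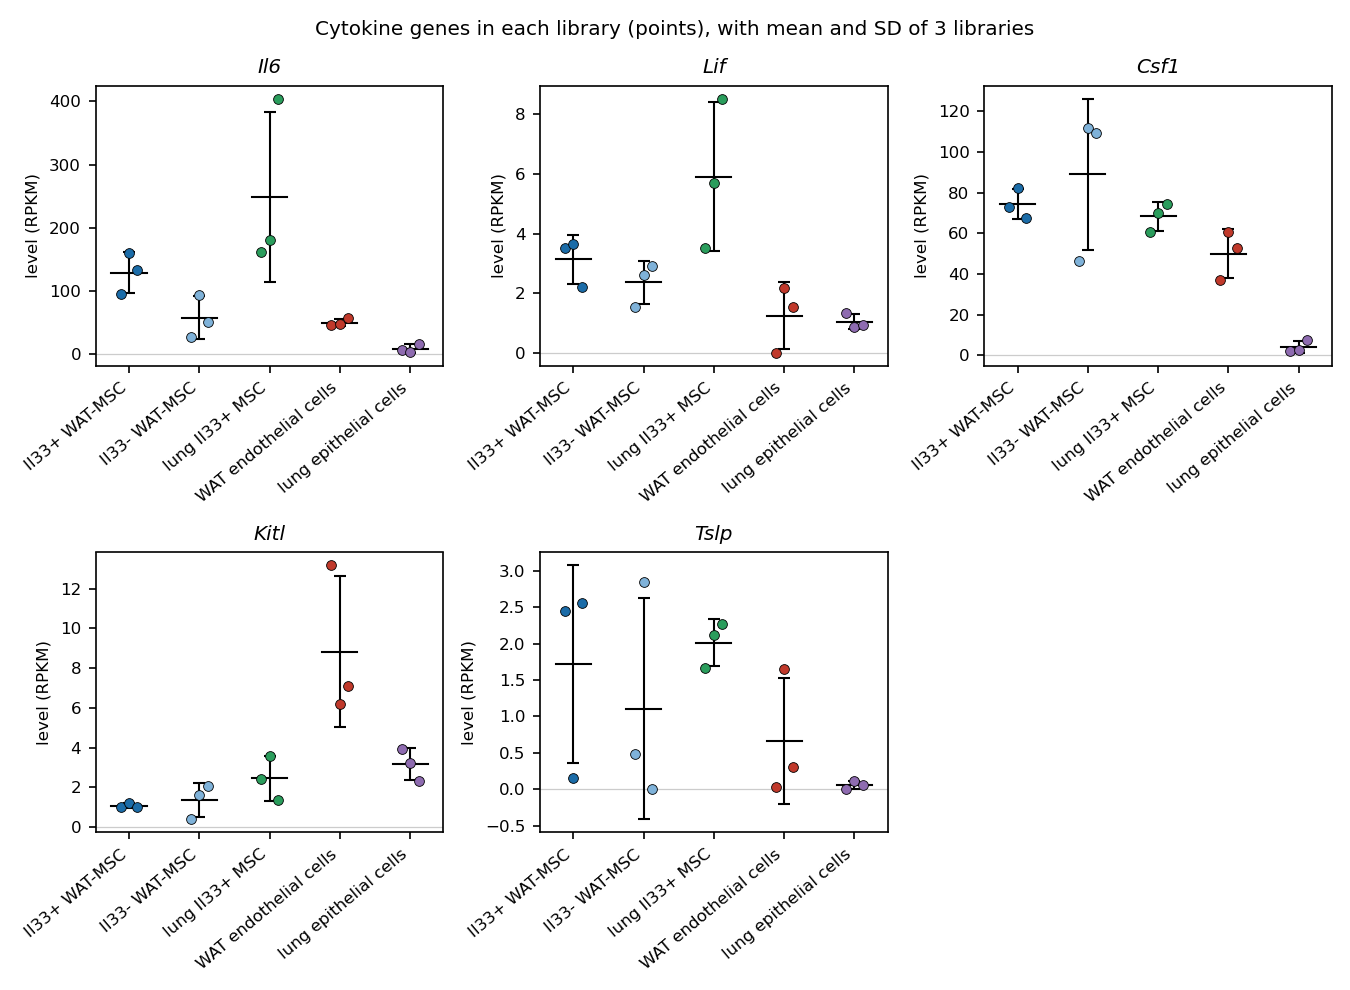
Level in RPKM (y axis, 1 panel per gene, each with its own scale) of Il6, Lif, Csf1, Kitl and Tslp in 5 sorted populations (x axis). Points are libraries, the horizontal line is the mean and the bars are the SD of 3 libraries. Il6 and Lif have their highest mean in lung Il33+ MSC, Csf1 in Il33- WAT-MSC and Kitl in WAT endothelial cells.

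Il6 lies on chromosome 5 (chr5:30013114-30019975, plus strand, GRCm38, 5 exons) and encodes a cytokine of the acute response. Its level was 94.83, 159.66 and 132.55 RPKM in the 3 libraries of Il33+ WAT-MSC. In Il33- WAT-MSC it was 27.75, 94.26 and 50.75, and in lung Il33+ MSC 161.26, 180.23 and 404.09. The WAT endothelial libraries held 45.64, 47.40 and 56.77, and the lung epithelial libraries 6.62, 3.62 and 16.24.

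Every Il33+ WAT-MSC library was thus above every Il33- WAT-MSC library, although the nearest pair stood at 94.83 and 94.26 RPKM, and every lung Il33+ MSC library was above both. In the order of the means, lung Il33+ MSC came first, then Il33+ WAT-MSC, Il33- WAT-MSC, endothelial and epithelial cells. The ranges of Il33- WAT-MSC and endothelial cells overlapped, and those of the other neighbours in this order did not. Replicate 3 of lung Il33+ MSC stood above the other libraries of its group.

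2 Il6 transcripts were listed, of 211 and 165 codons, and the shorter lacks 138 coding bases of the longer. The longer made up 72.9% ± 10.7 of the Il6 level in Il33+ WAT-MSC, 73.5% ± 5.20 in Il33- WAT-MSC and 66.9% ± 2.42 in lung Il33+ MSC. In endothelial cells it made up 63.6% ± 10.3. The shares overlapped between all 5 populations. How the authors' software divided reads between such transcripts was not given in the sources used here, so transcript shares are estimates.

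Lif (chr11:4257557-4272514, plus strand, 4 exons, 203 codons) encodes the leukemia inhibitory factor. It stood at 3.53, 3.67 and 2.21 RPKM in Il33+ WAT-MSC, at 1.55, 2.62 and 2.93 in Il33- WAT-MSC and at 3.53, 5.69 and 8.52 in lung Il33+ MSC. It was at 0.01, 2.19 and 1.55 in endothelial and at 1.36, 0.88 and 0.93 in epithelial libraries. Neighbours in the order of its means overlapped at every step, and the value of 0.01 was in endothelial replicate 1, the library with most transcripts at 0.

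Csf1 (chr3:107741048-107760469, minus strand) was level across the stroma. Its values were 72.74, 82.19 and 67.71 RPKM in Il33+ WAT-MSC, 46.24, 111.65 and 109.34 in Il33- WAT-MSC and 60.54, 70.12 and 74.24 in lung Il33+ MSC. The endothelial libraries held 36.88, 60.48 and 52.80 and the epithelial libraries 2.28, 2.67 and 7.39. The 3 stromal populations overlapped one another. The epithelial libraries were all far below every other library, and the ranges of lung Il33+ MSC and endothelial cells came as near as 60.54 and 60.48 RPKM.

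Csf1 was listed as 3 transcripts, which differ in what they encode. The shortest coding sequence, of 257 codons, lacks 885 coding bases that the others share; the region absent from it holds the sites at which CSF-1 is cut for release, so this form is known as the cell-surface form. The other 2, of 2097 and 4176 bases, encode the same 552 codons and have different ends. The 257-codon transcript was the most abundant in all 9 stromal libraries, at 50.8 ± 3.77 RPKM or 68.8% ± 6.66 of the Csf1 level in Il33+ WAT-MSC, 62.5 ± 33.7 RPKM or 66.5% ± 13.6 in Il33- WAT-MSC and 48.3 ± 10.1 RPKM or 70.2% ± 7.87 in lung Il33+ MSC.

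The 4176-base transcript went another way. It was at 2.62, 9.02 and 4.90 RPKM in Il33+ WAT-MSC and at 12.83, 14.29 and 12.42 in Il33- WAT-MSC, with no overlap. It was at 3.65, 6.72 and 2.60 in lung Il33+ MSC and at 14.21, 14.37 and 12.99 in endothelial cells. So this form of Csf1 was lower in each of the Il33+ stromal libraries than in any Il33- WAT-MSC or endothelial library. It was lower still in the epithelial libraries, at 0, 0.19 and 0.19 RPKM. This grouping was made after the values were seen, and the share of all transcripts that separate in this way was not computed.

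By the test on single transcripts, fitted after the values were seen, the 4176-base transcript differed by -1.24 on the log2 scale (SE 0.36, adjusted p = 0.211) between Il33+ and Il33- WAT-MSC, and by -1.31 (SE 0.41, adjusted p = 0.159) between Il33+ WAT-MSC and endothelial cells. Neither passed the test, in which 0.97% and 3.56% of all transcripts tested passed. Its share of the Csf1 level was 7.27% ± 3.69 in Il33+ WAT-MSC, 17.3% ± 9.07 in Il33- WAT-MSC and 29.0% ± 8.30 in endothelial cells. The plot of stacked Csf1 transcripts shows the share in each library.

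**Figure D2:**
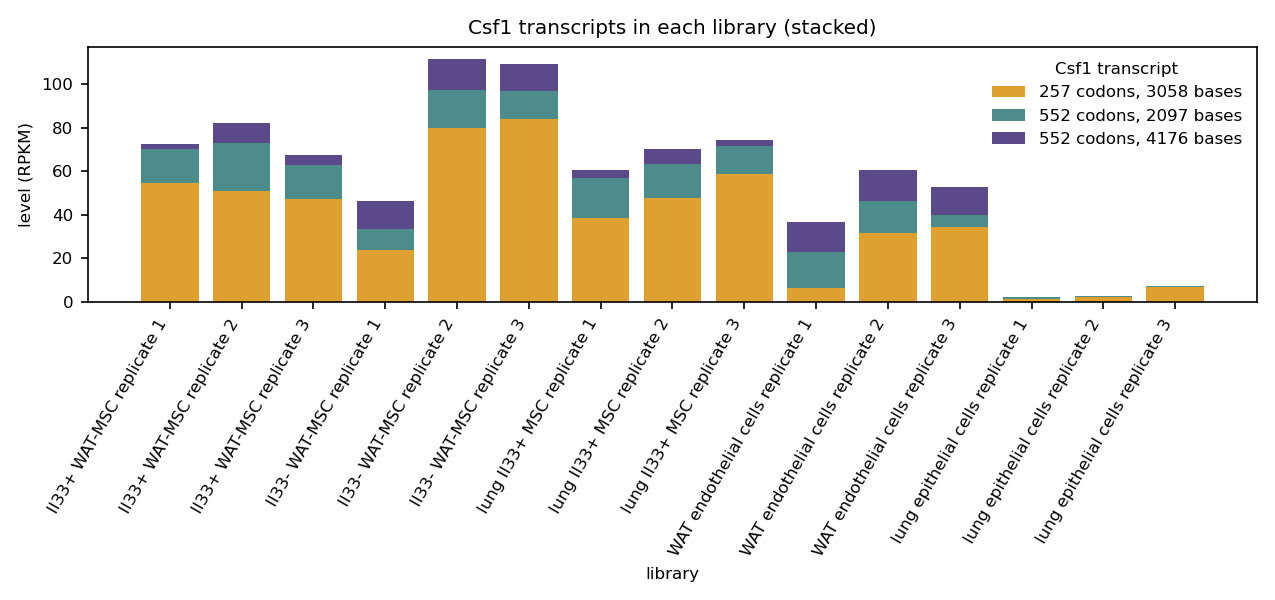
Level in RPKM (y axis) of the 3 Csf1 transcripts, stacked, in each of 15 libraries (x axis), with colours for the 257-codon transcript and for the 2097-base and 4176-base transcripts of 552 codons. The 4176-base transcript is at 2.60 to 9.02 RPKM in the 6 Il33+ stromal libraries. It is at 12.42 to 14.37 in the 6 Il33- WAT-MSC and endothelial libraries and at most 0.19 in the epithelial libraries.

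Kitl (chr10:100015630-100100416, plus strand, 10 exons, 273 codons) had its highest mean in the endothelial cells. In Il33+ WAT-MSC it was at 1.00, 1.23 and 0.99 RPKM, in Il33- WAT-MSC at 0.39, 1.59 and 2.06 and in lung Il33+ MSC at 2.40, 3.59 and 1.36. The endothelial libraries held 13.18, 6.17 and 7.12 and the epithelial libraries 3.95, 3.25 and 2.31. Every endothelial library was above every other library, and the remaining populations overlapped their neighbours in the order of means.

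Tslp was represented only by a transcript that RefSeq lists as non-coding, so its values do not measure the message for the cytokine. It was at 2.44, 0.15 and 2.56 RPKM in Il33+ WAT-MSC, 0.48, 2.84 and 0.00 in Il33- WAT-MSC and 1.66, 2.11 and 2.27 in lung Il33+ MSC. It was at 0.03, 1.65 and 0.31 in endothelial and at 0.00, 0.11 and 0.06 in epithelial libraries. Within WAT the libraries of 1 population ran from near 0 to 1.65 RPKM or more, and the WAT populations overlapped.

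The first comparison asked whether the WAT-MSC that express Il33 differ from those that do not in these cytokines. Il6 was 2.24-fold higher by the ratio of means in Il33+ WAT-MSC, a log2 difference of 1.29 (SE 0.38, 95% interval 0.45 to 2.13), and its libraries did not overlap. It did not pass the test over all genes (adjusted p = 0.168, limma), in which 1.57% of 8448 genes passed. With a replicate block as an alternative it did pass (adjusted p = 0.0106, limma), but whether replicate numbers pair the libraries is not known. Lack of overlap alone was common, at 17.5% of genes. The difference of Il6 was 1.25 within lane 1 and 1.37 within lane 2, and without Il33- WAT-MSC replicate 2 it was 1.72 (adjusted p = 0.0462, limma). With any other single library left out it did not pass, at 0.86 (adjusted p = 0.310) without Il33- WAT-MSC replicate 1 and with adjusted p up to 0.450 without Il33+ WAT-MSC replicate 2 (1.12).

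Lif differed by 0.30 (95% interval -0.46 to 1.06), Csf1 by -0.16 (-0.86 to 0.55), Kitl by -0.10 (-0.98 to 0.77) and the Tslp transcript by 0.44 (-0.84 to 1.72), all with overlapping libraries and adjusted p from 0.808 to 0.958. So 0 of the 5 measured cytokine genes passed this test, where 1.57% of all genes did.

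A receptor chain of these cytokines did pass between Il33+ and Il33- WAT-MSC. Lifr, which encodes the chain that binds LIF, was at 10.71, 10.06 and 9.89 RPKM in Il33+ and at 30.26, 37.22 and 31.26 in Il33- WAT-MSC. It was lower in Il33+ WAT-MSC in every library, with a log2 difference of -1.59 (SE 0.23, adjusted p = 0.00614, limma), and the call held in 15 of 15 tested alternatives (highest adjusted p 0.0431). Of 12 receptor chains 8 were tested, and Lifr was the only one that passed; their median log2 difference was -0.26, against -0.01 over all genes.

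The other gp130 receptor chains did not pass. Il6st, the shared chain, was at 116 ± 18.2 RPKM in Il33+ and 84.9 ± 14.4 in Il33- WAT-MSC (log2 difference 0.45, adjusted p = 0.505, limma), and Il6ra was at 25.3 ± 8.44 and 25.1 ± 3.29. Osmr, the oncostatin M receptor chain, was at 38.4 ± 10.4 and 52.4 ± 12.3. Thus WAT-MSC held message for both the ligands Il6 and Lif and the chains that bind them. The plot of receptor levels sets the chains side by side.

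**Figure D3:**
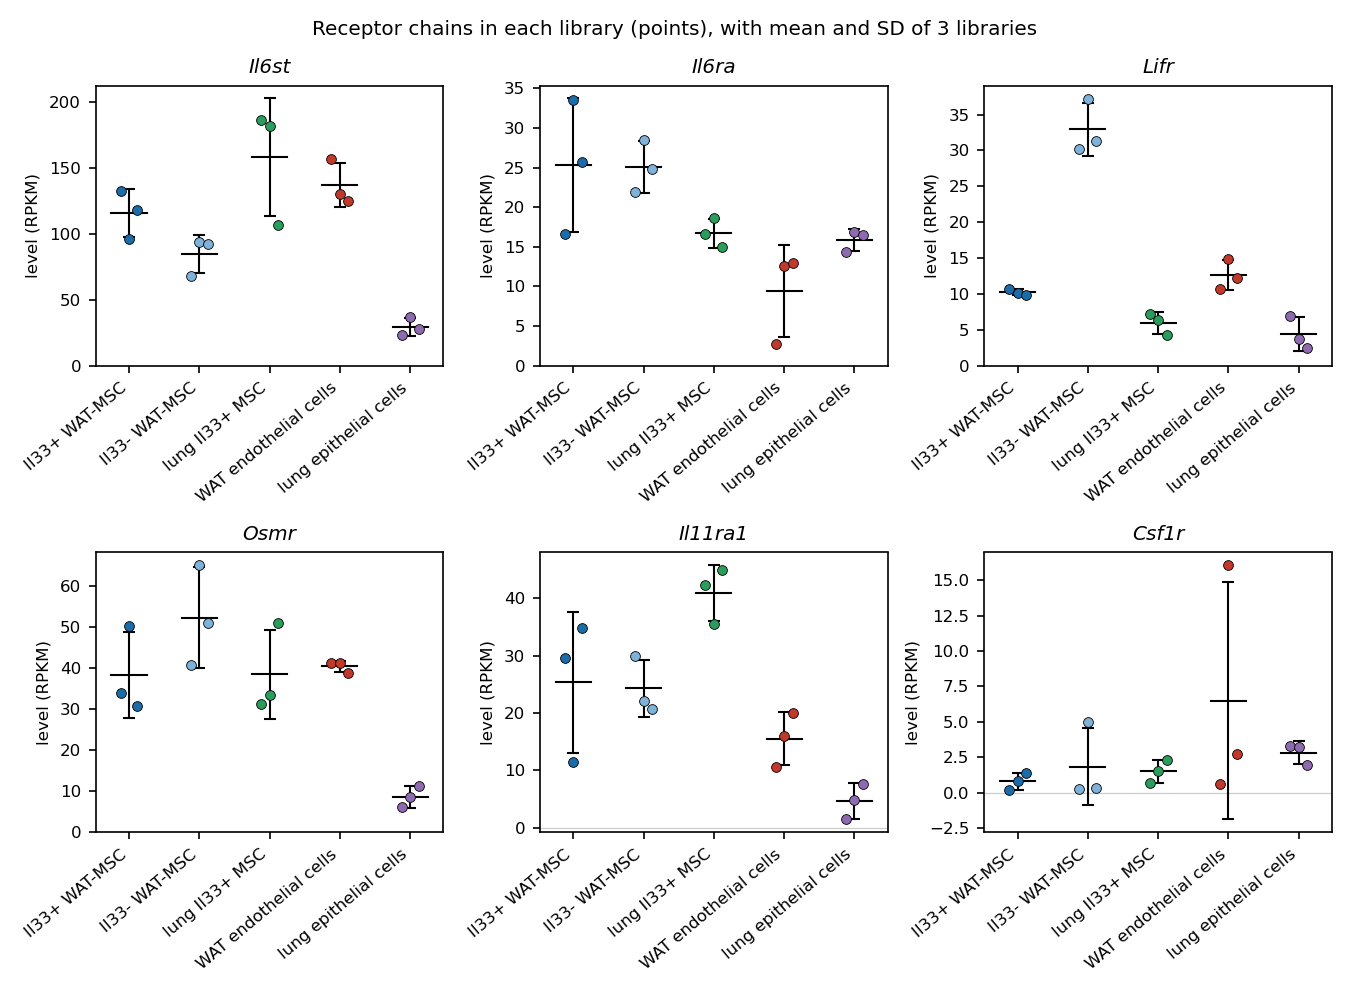
Level in RPKM (y axis, 1 panel per gene, each with its own scale) of 6 receptor chains in the 5 populations (x axis). Points are libraries, the line is the mean and the bars are the SD of 3 libraries. Lifr is at 30.26 to 37.22 in Il33- WAT-MSC and at most 14.86 in any other library.

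Of genes that gp130 is known to induce, 0 of 10 tested passed between Il33+ and Il33- WAT-MSC (median 0.10), among them Socs3, at 166 ± 21.1 and 184 ± 45.5 RPKM. Of 7 regulators of Il6 mRNA, such as the RNase Zc3h12a and the decay factor Zfp36, 0 passed. Of 6 genes tested for shedding of membrane-bound ligands, 1 was lower: Adam19, a metalloprotease, at 31.6 ± 1.13 against 66.5 ± 11.6 RPKM (log2 difference -1.04, adjusted p = 0.0408, limma), a call that held in 8 of 15 alternatives. Of 5 other blood-cell growth and survival factors, 1, Il33 itself, the gene of the sort, was higher.

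Markers of other cells were read beside this comparison. Pecam1 and Cdh5 were low in both, Pecam1 at 2.34 ± 0.55 RPKM in Il33+ WAT-MSC, and Epcam was at most 0.23. Mesothelial markers summed to 60.6 to 159 RPKM in Il33+ and 42.6 to 51.8 in Il33- WAT-MSC, with 2 of 9 tested higher in Il33+ cells. The summed level of 10 listed leukocyte markers was 7.84 to 24.8 RPKM in Il33+ and 11.8 to 91.0 in Il33- WAT-MSC, with 6 to 8 and 2 to 8 of them under 1 RPKM. The summed level of 15 immediate early genes, which rise within minutes of cell handling, was 4580 to 7957 in Il33+ and 6665 to 10220 in Il33- WAT-MSC. Pericyte and smooth muscle markers summed to 34.6 to 41.4 and 6.93 to 19.0, with 1 of 6 tested higher in Il33+ cells. The part of these markers in the level of Il6 was not tested.

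The comparison of tissues set Il33+ stroma of WAT against that of lung. Il6 was lower in WAT, with a log2 difference of -0.84 (SE 0.34, 95% interval -1.59 to -0.10) and no overlap, but did not pass (adjusted p = 0.223, limma). Kitl differed by -0.68 (-1.40 to 0.03, adjusted p = 0.313) without overlap and Lif by -0.70 (-1.43 to 0.04, adjusted p = 0.314) with overlap. Csf1 was close, at 0.12 (-0.28 to 0.52), and the Tslp transcript differed by -0.31 (-1.28 to 0.65).

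None of the 5 measured cytokine genes passed there (limma), where 6% of 8554 genes did and 23.1% had groups without overlap. Within lane 1 the difference of Lif was 0.02 and within lane 2 it was -1.31, and that of Il6 was -0.39 and -1.02. Lung replicate 3, in lane 2, held the highest Il6 and Lif of all libraries.

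Other growth factors did differ between these tissues. Of 5 tested, 3 were lower in WAT: Angpt1, the ligand of the endothelial receptor TIE2 (1.30 ± 0.60 against 8.67 ± 1.15 RPKM), Tnfsf13b, the B cell survival factor BAFF (1.75 ± 1.07 against 9.51 ± 1.63), and Cxcl12, the chemokine that retains blood progenitors (21.9 ± 4.63 against 81.2 ± 5.83). Their log2 differences were -2.10, -1.99 and -1.86, with adjusted p of 0.00212, 0.00436 and 0.000453 (limma). The median of the list was -1.86, against 0.03 over all genes.

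Shedding genes split. Timp3, an inhibitor of ADAM17, was at 185 ± 26.6 RPKM in WAT and 1190 ± 159 in lung, a log2 difference of -2.68 (adjusted p = 8.8e-05, limma), and Rhbdf2, a partner of ADAM17, was lower too, at -1.17 (adjusted p = 0.035), a call that held in 5 of 14 alternatives (highest adjusted p 0.148). Adam19 was higher in WAT by 1.17 (adjusted p = 0.01). Of the receptor chains 0 of 8 tested passed, of the Il6 mRNA regulators 0 of 7, and of the gp130 response genes 1 of 10, Timp1, which was lower in WAT at 33.8 ± 13.3 against 111 ± 59.5. The call on Timp1 held in 8 of 15 alternatives (highest adjusted p 0.256).

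Immediate early genes were part of this contrast. Of 15, 3 were lower in WAT, namely Nr4a1 (log2 difference -1.27), Ier3 (-1.13) and Fos (-0.96). The call held in 15 of 15 alternatives for Nr4a1, in 11 for Ier3 and in 7 for Fos (highest adjusted p 0.333). The 15 genes summed to 9262 to 10370 RPKM in lung Il33+ MSC. Leukocyte markers summed to 208 to 220 RPKM in lung Il33+ MSC, with Lyz2 at 126 ± 19.9, against 7.84 to 24.8 in Il33+ WAT-MSC. Alveolar epithelium also makes Lyz2. Epithelial markers summed to 183 to 552 RPKM in lung Il33+ MSC and 80.3 to 172 in Il33+ WAT-MSC. Of 5 epithelial markers tested, 3 were lower in WAT. Endothelial markers summed to 26.6 to 49.96 RPKM in Il33+ WAT-MSC and 58.8 to 95.9 in lung Il33+ MSC, with 4 of 10 tested lower in WAT. Of the mesothelial markers 7 of 9 tested were higher in WAT, where they summed to 60.6 to 159 RPKM, against 26.1 to 32.0 in lung. Pericyte and smooth muscle markers summed to 34.6 to 41.4 in WAT and 109 to 116 in lung. Of 7 tested, 1 was higher and 2 were lower in WAT. Abcc9 alone was at 84.6 ± 8.04 RPKM in lung against 19.1 ± 1.54 in WAT. Rgs5 went the other way, at 0.50 ± 0.32 in lung against 11.9 ± 4.12 in WAT. The part of any of these in the level of Il6, Lif or Kitl was not tested. In bulk libraries, fewer cells of a type and less RNA per cell cannot be told apart.

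Against the endothelium of the same tissue, Il33+ WAT-MSC had more Il6 and less Kitl. Il6 was 2.58-fold higher by the ratio of means, a log2 difference of 1.33 (SE 0.28, adjusted p = 0.0347, limma), and Kitl was lower by -2.18 (SE 0.42, adjusted p = 0.0232), with 8.22-fold more in endothelial cells. So 1 of 5 passed as higher and 1 as lower, where 0.565% of all genes passed as higher and 3.34% as lower (3.9% in either direction). Within lanes 1 and 2, Il6 differed by 1.38 and 1.21 and Kitl by -2.26 and -2.03. Both calls were sensitive to single libraries: adjusted p reached 0.171 for Il6 and 0.122 for Kitl when 1 library was left out, and neither passed when an Il33+ WAT-MSC library, whichever it was, or endothelial replicate 2 was left out.

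Csf1 differed by 0.58 (95% interval -0.04 to 1.20, adjusted p = 0.362) and Lif by 1.02 (-0.15 to 2.19, adjusted p = 0.399). Neither passed (limma), although their libraries did not overlap, as was so for 23.2% of genes. The Tslp transcript differed by 0.66 (-0.64 to 1.96). The median of all genes was itself 0.18 higher in Il33+ WAT-MSC and 0.03 after median-ratio scaling, under which Il6 differed by 1.12 (adjusted p = 0.0801).

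Stromal markers were read in the endothelial libraries beside these values. Taken as a percentage of the Il33+ WAT-MSC mean, the median of 15 stromal markers was 30.5, 33.2 and 70.3% in endothelial replicates 1, 2 and 3. Il6 was at 35.4, 36.7 and 44.0% and Csf1 at 49.7, 81.5 and 71.2% of that mean. The Il6 share lay near the stromal marker share in replicates 1 and 2 and below it in replicate 3. The Csf1 share was above the stromal marker share in replicates 1 and 2 and near it in replicate 3. Kitl was at 1228, 575 and 663% in the same libraries. How much of the endothelial Il6 or Csf1 came from stromal cells was not tested.

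Il33- WAT-MSC, set against the same endothelial libraries, gave 1 call of 4 tested, where 5.69% of all genes passed, 4.1% as lower. Kitl was lower by -2.08 (SE 0.48, adjusted p = 0.0363, limma), by -2.41 within lane 1 and -1.41 within lane 2, and this call too was lost on leaving out single libraries (adjusted p up to 0.129). Il6 differed by 0.04 (95% interval -0.90 to 0.98), and by -0.15 after median-ratio scaling. Csf1 differed by 0.74 (-0.14 to 1.62) and Lif by 0.71 (-0.46 to 1.89). The Tslp transcript reached 1 RPKM in 2 of these 6 libraries, fewer than the 3 required, and was not tested. The endothelial libraries are shared by both comparisons, and the test of Il33+ against Il33- WAT-MSC is the one given above.

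Among the receptors, Lifr was higher in Il33- WAT-MSC than in endothelial cells (32.9 ± 3.76 against 12.6 ± 2.09 RPKM, log2 difference 1.32, adjusted p = 0.0283, limma), a call held in 9 of 15 alternatives, whereas in Il33+ WAT-MSC it differed from them by -0.27 (adjusted p = 0.714). Il6st was at 137 ± 16.9 in endothelial cells, and 0 of 9 tested receptor chains passed against Il33+ WAT-MSC. Of the gp130 response genes only Lrg1, a glycoprotein of endothelium and liver, passed in either comparison, at 25.5 ± 10.3 in endothelial cells against 0.45 ± 0.31 in Il33+ and 0.06 ± 0.09 in Il33- WAT-MSC. Csf1r, the receptor of CSF-1, was at 0.64, 16.05 and 2.77 in the endothelial libraries and at most 4.97 in any WAT-MSC library.

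Of 7 regulators of Il6 mRNA 0 passed for either WAT-MSC population. Of the shedding genes, Rhbdf2 was lower in Il33+ and in Il33- WAT-MSC (log2 differences -1.96 and -2.07), and in Il33- WAT-MSC Timp3 was lower (-1.53) and Adam19 higher (2.16, adjusted p = 0.00265, limma). Of 15 immediate early genes 1 was lower in each comparison, Egr3 in Il33+ (-1.97) and Ier3 in Il33- WAT-MSC (-1.58). Il33, the gene by which the WAT-MSC were sorted, was higher in Il33+ (1.49) and lower in Il33- WAT-MSC (-1.59). Of the calls on Il33+ WAT-MSC, that of Il33 held in 5 of 15 alternatives, that of Rhbdf2 in 5 of 14 and that of Egr3 in 12 of 15. Of those on Il33- WAT-MSC, Il33 and Timp3 held in 10 of 15, Ier3 in 9 of 15, Rhbdf2 in 8 of 14 and Adam19 in 15 of 15. Leukocyte markers summed to 252 to 452 RPKM in the endothelial libraries. Cd74 alone was at 240 ± 47.6 there, and 0 to 6 of the 10 listed were under 1 RPKM. Pericyte and smooth muscle markers summed to 229 to 299 RPKM there, with the pericyte gene Rgs5 at 188 ± 41.2 against 11.9 ± 4.12 in Il33+ WAT-MSC, and 4 of 10 tested were lower in Il33+ and 6 of 10 in Il33- WAT-MSC. Mesothelial markers summed to 52.2 to 252 RPKM there, with a median log2 difference of -0.34 for Il33+ WAT-MSC, and 4 of 9 tested were lower in Il33- WAT-MSC. The part of these markers in these values, Kitl and Il6 included, was not tested.

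The widest contrast was between lung Il33+ MSC and lung epithelium, where 43% of 9352 genes passed and 24.4% passed as higher in stroma. Of the 5, 4 were higher in stroma, against a background in which such calls were frequent. The median of all genes was itself 0.13 higher in stroma, and -0.06 after median-ratio scaling. Under that scaling 1979 genes passed as higher in stroma and 2096 as lower, against 2285 and 1734 in the main fit. The folds that follow are from the unscaled values. Il6 was 28.2-fold higher by the ratio of means (log2 difference 4.75, SE 0.49, adjusted p = 5.04e-05, limma) and Csf1 16.6-fold (3.89, SE 0.35, adjusted p = 1.91e-05). Lif was 5.60-fold higher (1.69, SE 0.33, adjusted p = 0.00236), although by 0.94 within lane 1 and 2.07 within lane 2. The Tslp transcript was higher by 1.51 (SE 0.24, adjusted p = 0.000699), with an epithelial library listed at 0.

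Kitl was the exception, at -0.31 (95% interval -1.04 to 0.43, adjusted p = 0.486), with overlapping libraries. All 4 calls held in each tested alternative in which the gene was kept, and the values for all comparisons are drawn in the plot of differences with intervals. Stromal markers in the epithelial libraries were at 1.91 to 4.17% of the Il33+ WAT-MSC level by their median. The epithelial markers summed to 183 to 552 RPKM in lung Il33+ MSC, against 162300 to 209800 in epithelium. Scgb1a1 alone was at 160613, 208003 and 179632 RPKM in the epithelial libraries, most of their summed RPKM of 261644, 330847 and 311528. In lung Il33+ MSC it was at 72.88, 200.33 and 492.88. Endothelial markers summed to 82.9 to 127 RPKM in the epithelial libraries and 58.8 to 95.9 in lung Il33+ MSC, with 2 of 11 tested lower and 1 higher in stroma, and their part in the level of Kitl was not tested.

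**Figure D4:**
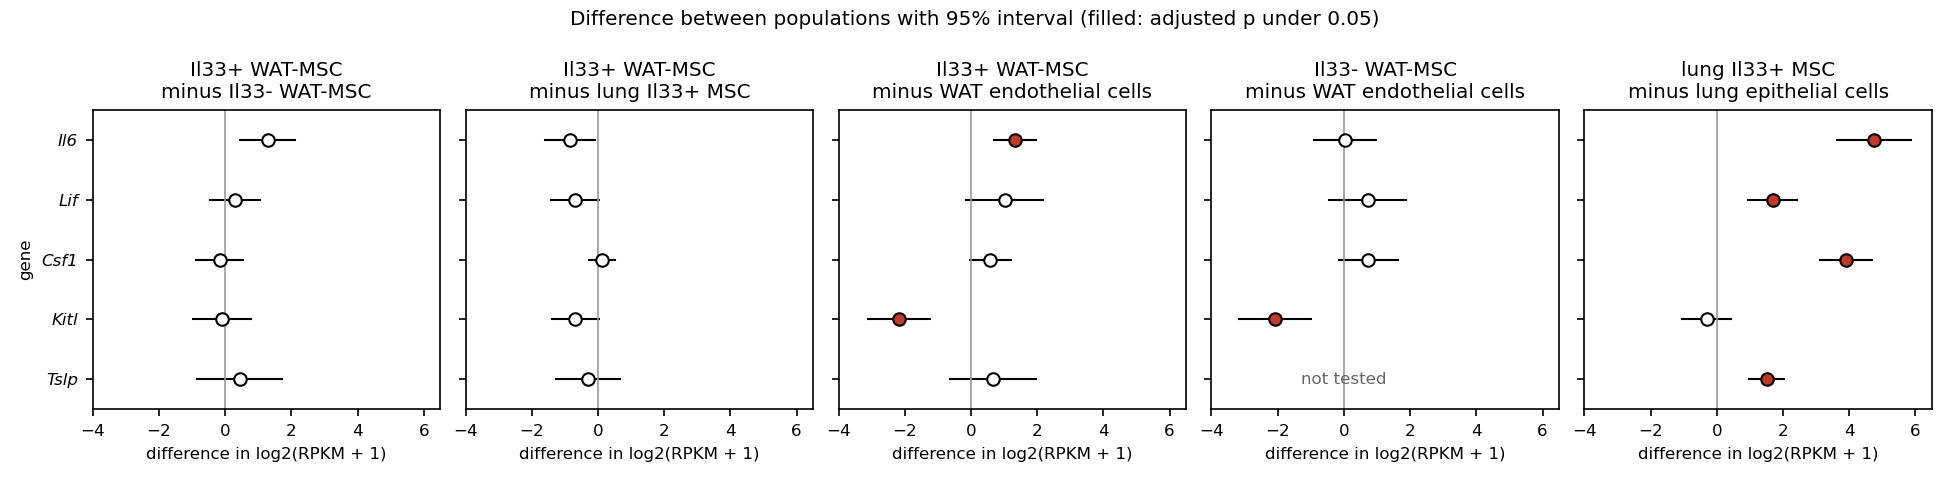
Difference in log2(RPKM + 1) (x axis) of 5 cytokine genes (y axis) in 5 comparisons (panels), with 95% intervals from limma. Filled points have an adjusted p under 0.05. Against endothelial cells they are Il6 and Kitl for Il33+ WAT-MSC and Kitl alone for Il33- WAT-MSC. In lung Il33+ MSC against epithelium they are Il6, Lif, Csf1 and the non-coding Tslp transcript.

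Genes of the pathways around the cytokines also differed in that contrast. Of 9 receptor chains tested, 4 were higher in lung stroma: Il11ra1 (40.9 ± 4.87 against 4.65 ± 3.09 RPKM, log2 difference 3.06), Cntfr (2.94), Il6st (159 ± 44.9 against 29.3 ± 6.85, 2.38) and Osmr (2.04). Lower were Sdc1, the epithelial syndecan (-3.56), and Ptprz1, a phosphatase that binds IL-34 (-2.93). Il6ra, at 16.7 ± 1.81 and 15.9 ± 1.38, and Lifr, at 5.91 ± 1.49 and 4.38 ± 2.32, did not pass.

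Of 11 gp130 response genes, 10 were higher in lung stroma, led by Timp1 (log2 difference 5.11), Socs3 (146 ± 22.8 against 18.9 ± 2.51 RPKM, 2.89) and Junb (2.60), and Lrg1 was lower (-1.64, in 10 of 14 alternatives); the median was 2.04, against 0.13 over all genes. Of 7 regulators of Il6 mRNA 6 were higher, among them Nfkbiz, a nuclear partner of NF-κB (3.14), Zfp36, a decay factor (3.07), and Zfp36l2 (2.05). Of 15 immediate early genes 14 were higher. Junb stands in both of these lists, and Osmr among the receptors as well as the response genes. Of 5 other growth factors 5 were higher, with Cxcl12 (4.14), Il33 (3.12) and Flt3l (3.12) first. Il33 is the gene by which the lung stroma was sorted, so its place in this count is not an independent result.

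Of 8 shedding genes, 5 were higher in lung stroma, with Timp3 (4.26), Adam9 (1.44) and Rhbdf1 (1.42, a call held in 12 of 14 alternatives) first, and Adam8, a metalloprotease of leukocytes, was lower (-2.77). Leukocyte markers summed to 894 to 1756 RPKM in the epithelial libraries, with Lyz2 at 1010 ± 325, a gene that alveolar epithelium also makes. Csf1r was at 2.85 ± 0.79 there and 1.52 ± 0.79 in lung Il33+ MSC, and did not pass. Crlf2, a TSLP receptor chain, was at most 2.65 RPKM in any library.

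The cytokines kept different company across the 15 libraries. By Pearson's r of log2(RPKM + 1) among 9981 genes, Il6 was most like Ptgs2, which encodes the prostaglandin synthase COX-2 (r = 0.976), Bgn, the matrix proteoglycan biglycan (0.963), and Pdzrn3 (0.962). Ptgs2 had means of 176, 84.4, 285, 98.9 and 26.6 RPKM in Il33+ WAT-MSC, Il33- WAT-MSC, lung Il33+ MSC, endothelial and epithelial cells, the order of Il6 except that endothelial cells stood above Il33- WAT-MSC. Csf1 was most like Tnfaip6, a hyaluronan-binding protein of inflammation (0.983), Zhx3 (0.982) and Klf4 (0.981).

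Kitl was most like 3 genes that peaked in endothelium: Ptprb, the endothelial phosphatase VE-PTP (0.950), Ehd4 (0.944) and S1pr1, a receptor of sphingosine 1-phosphate (0.940). Lif was most like Rftn2 (0.908), Ereg, the growth factor epiregulin (0.905), and Rnf150 (0.900), and the Tslp transcript like Xylt1 (0.824), Spin1 (0.818) and Igdcc4 (0.806). These 15 points are 5 populations of 3 libraries each and not independent samples, so r mainly describes how populations differ and carries no p.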

How the data were processed

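RNA of 15 libraries from 5 sorted populations was amplified and sequenced. Per the submitters' processing notes and the paper's methods, the authors trimmed the reads, aligned them with TopHat2 in Partek to mm10 and deposited RPKM values of RefSeq transcripts. The tool that assigned reads to transcripts and the filter on low transcripts were not given in the sources used here. Reads had been divided between transcripts (22.2% of 284 low values of short transcripts lay within 0.1 of a whole read), so counts were not used, and the depth behind a value is unknown.

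RPKM was summed per symbol. Genes that reached 1 RPKM in 3 or more of the 6 libraries compared were kept, and log2(RPKM + 1) was fitted with limma 3.58.1 (lmFit, eBayes with a trend) in R 4.3.3, with Benjamini-Hochberg adjustment at 0.05 over all genes tested, 3 libraries against 3. An exact permutation test could not go below p = 0.1 here, so none is given. The fit was tested on simulated data. Other work used Python 3.11.15, numpy 2.4.6, pandas 2.3.3 and matplotlib 3.10.9.

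The members and lists were chosen with earlier results of these data known. Named were the 6 members, up to 3 genes per direction with the largest change among those past the threshold in each list, the receptors of the members, the 3 genes most like each member and the label markers; the other list genes given as examples were named after their values were seen. Replicate numbers were not treated as pairs in the main fit. The NF-κB motif was widened to its usual ambiguous form after the matches to a narrower one had been seen, and Lif matched only the wider form. Alternatives were each library left out, the most abundant transcript alone, the lane, a replicate block, 1 fit over all 15 libraries, filters of RPKM 5 or none, a pseudocount of 0.1 and scaling by quantiles or by median ratios.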

Additional observations from a re-analysis of the deposited data

How the results depend on the processing

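The direction of the lung Il33+ MSC against epithelium calls did not change under any alternative, and with a filter of RPKM 5 the members called there were 2, since fewer genes were kept. Within lane 1 Lif differed there by 0.94. Elsewhere the calls on the cytokine genes were fragile, and the cause was not tested.

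Between Il33+ and Il33- WAT-MSC, 1 member was called with a replicate block, Il6 at 1.29 (adjusted p = 0.0106, limma). Deviations of same-numbered libraries correlated at 0.044 to 0.106 in this comparison and at -0.067 to 0.155 over all comparisons. Such weak correlations cannot tell whether the replicate numbers pair the libraries, so the block is given as an alternative only. The block changed no other call on the members. With 1 library left out, 0 to 1 members were called, Il6 ranged from 0.86 to 1.72, Csf1 from -0.57 to 0.055 and Kitl from -0.44 to 0.13. The sign of Csf1 turned without Il33- WAT-MSC replicate 2 (0.055) or 3 (0.04), and that of Kitl without the same libraries (0.0056 and 0.13). The 2097-base Csf1 transcript alone differed by 0.41. Within lane 2, Lif differed by -0.29, Csf1 by -0.68, Kitl by -0.62 and the Tslp transcript by 1.83. Against lung Il33+ MSC, Lif differed by 0.022 and -1.31 and Csf1 by 0.35 and -0.090 within lanes 1 and 2, and the Tslp transcript ranged from -0.59 to 0.22 with 1 library left out, turning without Il33+ WAT-MSC replicate 2.

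Between Il33+ WAT-MSC and endothelial cells, 1 member was called under median-ratio scaling (Il6 at 1.12, adjusted p = 0.0801), in 1 fit over all 15 libraries (Il6 at 1.33, adjusted p = 0.099) and with no filter (Kitl at -2.18, adjusted p = 0.052, limma). The Il6 transcript of 165 codons alone differed by 0.84 and the 4176-base Csf1 transcript by -1.31, and within lane 2 Lif differed by 0.33. With 1 library left out, 0 to 2 members were called, with Il6 at 1.16 to 1.53 and Kitl at -2.37 to -1.88. Between Il33- WAT-MSC and endothelial cells, 0 members were called with a pseudocount of 0.1 (Kitl at -2.80, adjusted p = 0.0732) and with no filter (Kitl at -2.08, adjusted p = 0.086, limma). Il6 turned to -0.15 under median-ratio scaling, -0.07 under quantile normalization and -0.35 for the 165-codon transcript, and Csf1 to -0.068 for the 4176-base transcript. Within lane 2 Kitl differed by -1.41. With 1 library left out, 0 to 1 members were called, Il6 ranged from -0.39 to 0.47, turning without Il33- WAT-MSC replicate 2 or endothelial replicate 1, and Kitl from -2.31 to -1.74, its call lost without any Il33- WAT-MSC library or endothelial replicate 2 or 3.

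Over all genes, calls between Il33+ and Il33- WAT-MSC numbered 133, but 20 with no filter, 232 with the replicate block and 55 to 122 with 1 library left out. Against lung Il33+ MSC they numbered 513, but 336 in the fit over 15 libraries and as few as 261, without lung replicate 2. Against endothelial cells they numbered 338 for Il33+ and 496 for Il33- WAT-MSC, but 805 and 1030 in the fit over 15 libraries and as few as 131 and 222 with 1 library left out. No scaling moved the share of higher calls by more than 10 percentage points. The 3 libraries per group, with the reads behind each value unknown, limit what can be told apart.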

Other observations

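The non-coding Tslp transcript, near 0 in several libraries, varied most of the 5 measured genes outside lung Il33+ MSC. Its coefficient of variation between libraries of a population was 79.1% in Il33+ WAT-MSC and 137% in Il33- WAT-MSC. The value was 130% in endothelial cells, but 15.7% in lung Il33+ MSC. The mean of this transcript was at most 2.01 RPKM in any population. Lif, with a mean of 1.25 RPKM in endothelial cells, varied by 89.6% there. Csf1 varied by 9.91% in Il33+ WAT-MSC and 10.3% in lung Il33+ MSC, and by 41.7% in Il33- WAT-MSC. Il6 varied by 25.2% in Il33+ WAT-MSC, against 58.7% in Il33- WAT-MSC and 54.3% in lung Il33+ MSC. Kitl varied by 12.7% in Il33+ WAT-MSC and 63.9% in Il33- WAT-MSC. These are values of 3 libraries each, with no test of the difference in spread.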
